A study of Homo sapiens with 8 samples.

Results

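The 10 genes described here carry cells from G1 into S phase: the D-type cyclins CCND1, CCND2 and CCND3, their kinases CDK4 and CDK6, the E-type cyclins CCNE1 and CCNE2 with their kinase CDK2, the retinoblastoma gene RB1, and CDKN1B, which encodes the inhibitor p27. They were chosen by name, 10 of 19389 protein-coding genes, by a rule that uses no measured value, although earlier results of these data were known. All poly(A) peaks overlapping the GENCODE span of each gene or the 4 kb after its 3′ end were taken. This gave 117 of the 153624 peaks in the list. After peaks with a downstream stretch of A and no upstream signal had been removed (5 peaks), 112 remained: 22 in terminal 3′ UTRs, 84 in introns, 3 in other exons and 3 downstream of the annotated ends.

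In G1, mitogens raise the D-type cyclins, which activate CDK4 and CDK6 to phosphorylate the RB protein. RB then releases E2F transcription factors, cyclin E with CDK2 completes the phosphorylation, and p27 binds and restrains these kinase complexes. Transcripts of several of these genes are known for alternative polyadenylation: cleavage at a proximal site leaves a short 3′ UTR and cleavage at a distal site a long one, whereas cleavage inside an intron gives a transcript without the last coding exons.

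Poly(A) 3′-sequencing was performed on Kelly cells, a human MYCN-amplified neuroblastoma line, and on Kelly E9R cells, a derivative with a point mutation in CDK12 at the cysteine to which THZ531 binds. Kelly E9R is a resistant line selected with another inhibitor, E9, rather than an engineered one, and other changes in it were not measured here. THZ531 inhibits CDK12 and CDK13, kinases of the transcription machinery that are not among the genes described here. Each line received DMSO, the solvent, or 400 nM THZ531 for 6 h, giving 4 groups of 2 libraries, which the labels call biological duplicates. This dose is that of the labels, and the study's methods give a lower one for these lines, so the dose is uncertain.

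The study asked whether inhibition of CDK12 moves transcript ends from annotated sites to sites within introns. The values analysed here were 1 list of peaks, called by the authors on the merged reads of all 8 libraries. Neither the inhibitor and the solvent nor the parental and the mutant line could therefore be compared, and values have no replicate. Whether a site was used in treated cells, in untreated cells or in both cannot be told apart. Each peak had a fold enrichment, the ratio of the read pileup at its summit to the local background with 1 added to each, and a −log10 q. The pileup itself, a number of overlapping reads extended to 100 bp, was recovered from these values. No pileup in the list exceeded 200, and the handling of duplicate reads is not given. Pileups are therefore heights of peaks and not measures of transcript abundance or of how often a site was used. Peaks had no strand, so a peak was read on the strand of the gene in whose window it lay, and its 3′ end was its last base in that direction.

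Of 14 markers of adrenergic neuroblastoma cells, 13 had a terminal 3′ UTR peak (HAND2 with a highest pileup of 70, GATA3 with 62). MYCN, the remaining marker, had 4 retained peaks in its window, but none ended in its annotated 3′ UTR or within 600 bp past it. Of 10 markers of other cell types, 3 had a terminal peak, with highest pileups of 16 (COL1A1), 16 (PDGFRB) and 6 (EPCAM). The blood markers PTPRC and CD3E had 0 peaks.

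Sequences at the peaks are shown first, because the peaks discussed below differ in whether a hexamer of the polyadenylation signal (PAS) lies upstream. The signal is a hexamer, most often AATAAA, bound by the cleavage machinery a short way before the cut. The search covered 12 hexamers, in the 100 bp upstream of where the peak ends. Besides AATAAA these were CATAAA, or else GATAAA, or else TATAAA, which differ from it in the first base. They also comprised ATTAAA, or else AGTAAA, or else ACTAAA, with a change of the next base, and further inside AAGAAA, then with a later change AATGAA, and then AATACA, or else AATAGA, or else AATATA. Where a window held several, the first in the study's order was taken, beginning with AATAAA, and not the nearest to the 3′ end. A site needed no hexamer: 14 of 22 terminal peaks had one on the strand of the gene, and 14 of 22 on the opposite strand. Capitals mark the hexamer, and every sequence is from GRCh38 on the strand of its gene, 5′ to 3′. For CCND1, the cyclin with the most sites, the hexamers of the proximal site, of the site 2696 bases after the stop codon and of the distal site differed. The AATGAA lay 7 bases before the 3′ end of its peak.
CCND1 proximal: aaaaagCATAAAaacattttaaaaacatag (chr11:69651699-69651728, forward strand, 3′ UTR)
CCND1 at 2696 bases: aatctcAATGAAgccagctcacagtgctgt (chr11:69653966-69653995, forward strand, 3′ UTR)
CCND1 distal: tctagaAATAAAactggtaaaaccccagcg (chr11:69654448-69654477, forward strand, 3′ UTR and past its end)
Next come hexamers of CCND3, of the distal sites of CDK6 and CDKN1B, and of genes with 1 site. All lie in the 3′ UTR near the annotated end, except that the distal site of CCND3 lies past it.
CCND3 proximal: ttgtgaAATAAAactggctttggcttcttg (chr6:41934935-41934964, reverse strand)
CCND3 distal: tatcacAATAAAtatggccttttatcttga (chr6:41934576-41934605, reverse strand)
CDK6 distal: aaattcATTAAAttccaagttttagcagaa (chr7:92604921-92604950, reverse strand)
CCNE1: ttttttAATAAAgataatactgtttttgag (chr19:29824280-29824309, forward strand)
CDK2: tagctcATTAAAaaaatgtgcctagtttta (chr12:55972753-55972782, forward strand)
RB1: ttttaaAATAAAttagttgttaagagtctt (chr13:48481859-48481888, forward strand)
CDKN1B distal: gtaatcAATAAAgaaaacttccatagctat (chr12:12722341-12722370, forward strand)
The last set holds intronic hexamers with no A-rich sequence after the peak. Oligo(dT), which primes these libraries, can also pair with A-rich stretches inside a transcript, and the peaks shown have no such stretch in the 50 bp after their 3′ ends. They are 6 of the 12 intronic peaks of this kind.
CCND1 intron 1: tttcaaAATAAAaattgcgggtattttctg (chr11:69641649-69641678, forward strand)
CCND1 intron 4: gaaagaATTAAAatgacaatcaaaagggtt (chr11:69648686-69648715, forward strand)
CCND3 intron 2: gagccaATTAAAgccaggccctgattgctt (chr6:41939861-41939890, reverse strand)
CDK6 intron 4: ccttttATTAAActtatttttcctattttg (chr7:92725577-92725606, reverse strand)
CDK6 intron 2: tctctcAATAAAgtattattttgatatttc (chr7:92811084-92811113, reverse strand)
RB1 intron 16: ttcataAATAAAcacttttgttcaatttaa (chr13:48380254-48380283, forward strand)

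Terminal 3′ UTR peaks were found for 9 of the 10 genes, against 66.8% of 19389 protein-coding genes. CCND2, the remaining D-type cyclin (chr12:4273762-4305353, 31.6 kb), had 0 peaks in its span, in its 5344-base 3′ UTR and in the 4 kb after it, and 24.2% of all protein-coding genes likewise had no retained peak. The list holds called peaks only and no depth per library. A transcript whose peak was not called, one below detection and an absent one therefore cannot be told apart. In such bulk samples fewer cells that express a gene and less RNA per cell cannot be told apart either. Among the 9 genes, 5 had 2 or more terminal sites (3′ ends over 100 bp apart), against 53.8% of 12949 genes with a terminal peak: CCND1, CCND3, CDK4, CDK6 and CDKN1B. CCNE1, CCNE2, CDK2 and RB1 had 1 site each. The share of genes with several sites was thus near that of all genes.

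**Figure D1:**
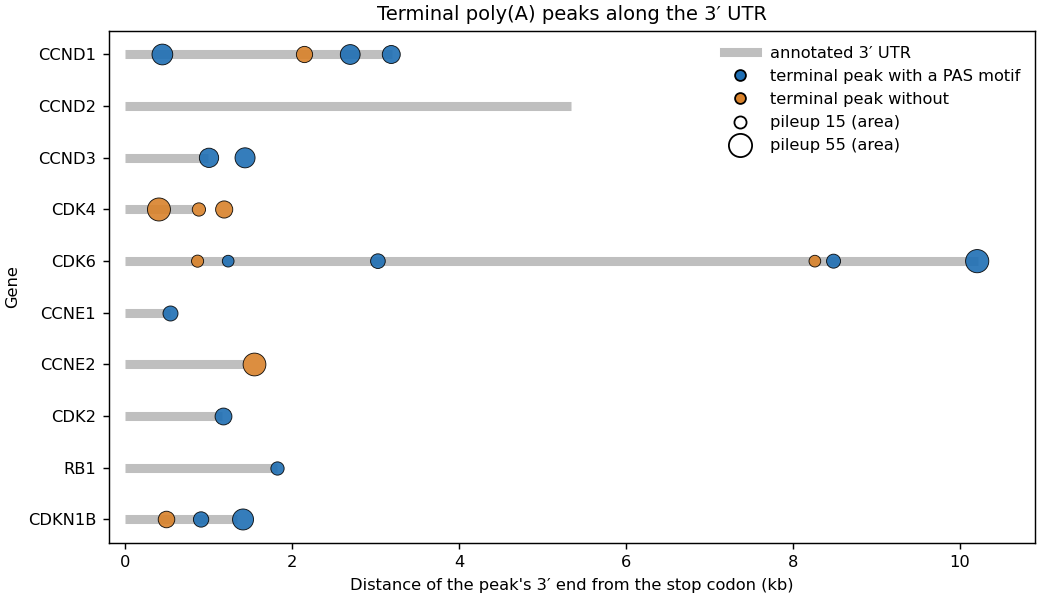
Positions of the 22 terminal peaks: the horizontal axis gives the distance of the 3′ end of each peak from the stop codon in kb, grey bars the annotated 3′ UTR, point area the pileup, and colour whether a PAS hexamer lies in the 100 bp before the 3′ end. CDK6 spans the longest range, from 866 to 10212 bases, and CCND2 has no peak.

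CCND1, which encodes cyclin D1 and whose 3′ UTR shortening is a textbook case of alternative polyadenylation, lies at chr11:69641156-69654474 on the forward strand and has a 3′ UTR of 3192 bases. Its 4 terminal peaks ended 444, 2138, 2696 and 3188 bases after the stop codon. The pileups were 44, 27, 40 and 33 in that order, so the proximal site was the highest by pileup although not by fold enrichment (7.45, against 8.47 for the site at 2696 bases). The distal peak ended 4 bp before the annotated transcript end, with its AATAAA 17 bases before that end. The proximal peak had CATAAA at 22 bases and lay 319 bp from the nearest annotated transcript end. The peak at 2138 bases had none of the hexamers, even over its whole length, and its −log10 q was 10.5, the lowest of the 4. It and the distal peak overlapped exons of LTO1 on the opposite strand, so their strand cannot be told apart from the list, and without them CCND1 kept 2 sites. Neither lay at an annotated end of LTO1. In the mirrored window on the opposite strand the distal peak had no hexamer, and the peak at 2138 bases had AATACA. The proximal and distal sites lay 2744 bp apart.

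CCND3 (cyclin D3, chr6:41934934-42050357, reverse strand) had its sites close together. The first peak ended 1003 bases after the stop codon, 3 bp from an annotated end, with a pileup of 38 and a fold enrichment of 11.6. The second ended at 1435 bases, 447 bases past the end of the reference transcript, with a pileup of 41 and a fold enrichment of 13.3. Both had AATAAA, at 22 and 95 bases. The unannotated site was thus as high as the annotated one, 432 bp away. Beyond them, peaks ended at 1733 bases (pileup 32) and 3006 bases (pileup 24) without a hexamer in the last 100 bp on the strand of CCND3. Over their whole width the first had ATTAAA 147 bases and the second AATAAA 110 bases before the 3′ end. The second lay at the 3′ end of BYSL, which converges on CCND3 from the opposite strand.

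CDK4 encodes the kinase bound by D-type cyclins and is a short gene (chr12:57747727-57752447, reverse strand, 4.72 kb). Its 3 terminal peaks ended 403, 882 and 1185 bases after the stop codon, with pileups of 54, 18 and 30. The first was among the stronger peaks of the set, with a fold enrichment of 13.9 and a −log10 q of 43.8, and lay inside the 798-base 3′ UTR. None of the 3 had a hexamer on the strand of CDK4 in the 100 bp before the 3′ end. Over the whole width of the peaks, AAGAAA was found 128 bases before the first 3′ end, AATATA 104 bases before the second and CATAAA 103 bases before the third. All 3 overlapped exons of TSPAN31, which ends on the opposite strand within the same window. The third had AATAAA on that strand, 37 bases before the peak's end in that direction. In that direction the third ended 222 bp and the second 534 bp from the TSPAN31 end. The first, the strongest, lay at no annotated end of TSPAN31. Without peaks at exons or ends of other genes CDK4 kept 0 terminal sites, so CDK4 and TSPAN31 cannot be told apart here.

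CDK6, the other kinase partner of D-type cyclins, spans 231.7 kb (chr7:92604921-92836573, reverse strand) and has the longest 3′ UTR of the set, 10219 bases. Its 6 terminal peaks ended at 866, 1233, 3028, 8266, 8490 and 10212 bases. The distal peak, 7 bp from the annotated end, had a pileup of 55, a fold enrichment of 16.5 and ATTAAA at 17 bases. The other 5 had pileups of 14 to 22, so the distal site exceeded each of them by more than 2-fold in pileup. Among these, the peak at 1233 bases had AATATA, that at 3028 bases TATAAA and that at 8490 bases AATAGA, less common forms of the hexamer. The peaks at 866 and 8266 bases had none within 100 bp, although AGTAAA lay 222 bases before the 3′ end of the first and AATAAA 124 bases before that of the second. A-rich sequence (a run of 6 A, or 10 bases with 7 A, in the 50 bp after the 3′ end) followed the peaks at 866, 3028, 8266 and 8490 bases. At a −log10 q of at least 10 CDK6 kept 2 terminal peaks. The first and last sites lay 9346 bp apart.

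CCNE1 and CCNE2 encode the E-type cyclins. CCNE1 (chr19:29811991-29824312, forward strand) had 1 terminal peak, 6 bp past its annotated end and 541 bases from the stop codon, with a pileup of 23, a fold enrichment of 12.8 and AATAAA at 33 bases. CCNE2 (chr8:94879770-94896678, reverse strand) had 1 wide peak of 342 bp, which ended 135 bp past the annotated end. Its pileup was 53 and its fold enrichment 20.6, the highest fold among the 22 terminal peaks. This peak had no hexamer within 100 bp on the strand of CCNE2, and AATAAA lay 172 bases before the 3′ end. The peak overlapped an exon of INTS8 on the opposite strand but lay at no annotated end of INTS8. It spanned the annotated end of CCNE2. On the opposite strand AATAAA lay 20 bases before the end of the peak. The list gives no strand, so the peak cannot be assigned to either gene from it.

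CDK2, the kinase partner of cyclin E, had its terminal peak 1 bp past its annotated end (chr12:55966821-55972789, forward strand), with a pileup of 29, a fold enrichment of 14.3 and ATTAAA at 32 bases. A weak peak with a pileup of 11 followed 1791 bases after the stop codon. It ended 627 bp past the annotated end, just outside the 600 bp limit for a terminal site. RB1 (chr13:48303744-48481890, forward strand), whose protein holds E2F factors inactive, had a terminal peak that ended at the annotated last base, with AATAAA at 26 bases. Its pileup of 18 was the lowest of the highest terminal pileups among the 9 genes, with a fold enrichment of 11.7. Both genes thus had the end that the annotation gives and no further site in the 3′ UTR.

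CDKN1B (chr12:12717368-12722369, forward strand) had 3 terminal peaks at 493, 908 and 1411 bases after the stop codon in its 1342-base 3′ UTR, with pileups of 28, 24 and 45. The distal one ended 69 bp past the annotated end and had AATAAA at 92 bases. The middle one had ATTAAA at 23 bases. The proximal one had none of the 12 hexamers in its whole width and lay 52 bp from an annotated transcript end. The proximal and distal sites were 918 bp apart, and the distal one was the highest by pileup and by fold enrichment (10.1, against 6.21 and 5.53).

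Against genes with 3′ UTRs of similar length (10 bins), the number of sites was higher than in most genes for CDK4, CDK6, CDKN1B and CCND1. For CDK4, 95.4% of genes in its bin had fewer sites, for CDK6 91.5%, for CDKN1B 87.2% and for CCND1 85.0%. The bin medians were 1, 3, 2 and 2 sites. The bin of CDK6 ran from 4692 to 32870 bases, so its rank is only loosely matched for length. The counts ranked include peaks of doubtful strand or strength. Without peaks at exons or ends of other genes CDK4 had 0 and CCND1 2, and at a −log10 q of at least 10 CDK6 had 2. The bins were not recounted under these cuts, so how the ranks would change was not tested. CCND3 was at the median of its bin with 2 sites, as was CCNE1 with 1. CCNE2, CDK2 and RB1 had 1 site against a median of 2.

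The 22 terminal peaks had a median pileup of 28.5 (range 14 to 55), against 18 for 23670 terminal peaks of all protein-coding genes. By fold enrichment the order was the reverse, with a median of 7.49 against 8.45. The median local background, which enters the fold as its denominator, was 272.5 reads per 10 kb at the 22 peaks and 116 at all terminal peaks. By the highest terminal pileup of each gene, 96.4% of genes with a terminal peak were below CDK6, 95.9% below CDK4, 95.5% below CCNE2, 90.8% below CDKN1B and 89.9% below CCND1. The figures for CCND3, CDK2, CCNE1 and RB1 were 86.6%, 65.9%, 48.6% and 31.8%. The 2 values near the top for CDK4 and CCNE2 belong to peaks that overlap exons of genes on the opposite strand.

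**Figure D2:**
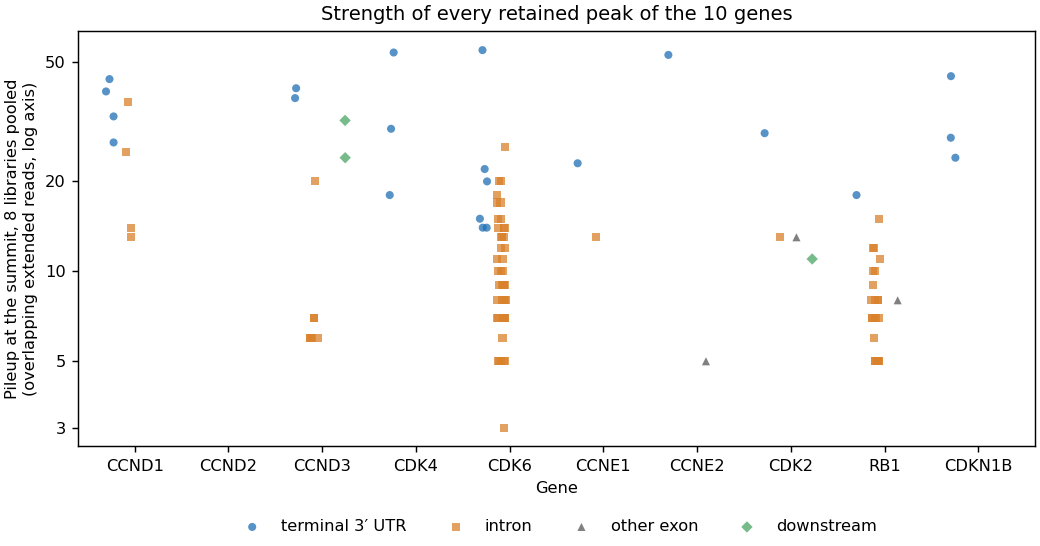
Pileup at the summit (overlapping extended reads, log axis, 8 libraries pooled) of each retained peak, by gene and by class of peak; points are spread sideways to be visible. Terminal peaks lie between 14 and 55, and intronic peaks between 3 and 37.

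A hexamer in the 100 bp before the 3′ end was found for 14 of 22 terminal peaks (63.6%, 95% Wilson interval 43.0 to 80.3%), below the 84.7% of all terminal peaks. As a measure of how often these letters occur without regard to the gene, the mirrored window on the other strand held one for 14 of 22 peaks as well, against 58.9% of all. The 8 peaks without a hexamer comprised the 3 of CDK4, 2 of CDK6, the peak of CCNE2, the CCND1 peak at 2138 bases and the proximal peak of CDKN1B. Without the peaks at exons or ends of other genes the share was 81.2%, and over the whole width of the peaks it was 90.9% (20 of 22, interval 72.2 to 97.5%) against 90.0% of all. On the opposite strand the whole width held one in 18 of 22 (81.8%), against 71.9% of all. With AATAAA and ATTAAA alone the share was 40.9% (9 of 22), against 64.9% of all. The share thus changed with the window, with the hexamers counted and with overlapping genes. A-rich sequence followed 6 of 22 terminal peaks (27.3%, interval 13.2 to 48.2%), near the 22.9% of all. On the opposite strand it was 3 of 22 (13.6%), against 26.8%.

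**Figure D3:**
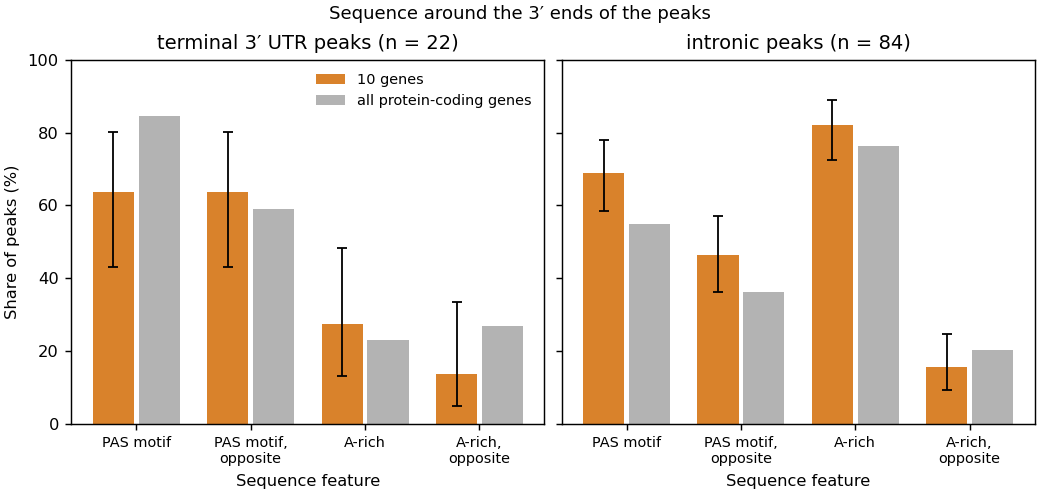
Share of peaks (%) with a PAS hexamer or A-rich sequence on the strand of the gene and on the opposite strand, for terminal peaks (left, n = 22) and intronic peaks (right, n = 84); orange bars are the 10 genes with 95% Wilson intervals, which cover counting error only, and grey bars all protein-coding genes. Intronic peaks were followed by A-rich sequence in 82.1%, terminal peaks in 27.3%.

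Intronic peaks were retained in 6 of the 9 genes with a terminal peak, against 76.6% of 12629 protein-coding genes with a terminal peak and an intron. The 84 intronic peaks were divided very unequally: CDK6 had 47, RB1 24, CCND3 7, CCND1 4, and CCNE1 and CDK2 1 each. CDK4, CCNE2 and CDKN1B had 0. Long genes hold more of these peaks, so each gene was set beside genes of similar length, in 20 bins of 631 or 632 genes.

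CDK6 stood high for its length. Its 47 intronic peaks compare with a median of 20 (quartiles 11 and 26) in the bin from 164.6 to 264.4 kb, in which 99.8% of genes had fewer. Of the 47, 39 were followed by A-rich sequence, 32 remained at a −log10 q of at least 5 and 11 at 10. RB1, in the same bin, had 24, which 64.5% of genes did not reach. CCND1, at 13.3 kb, had 4 against a median of 1, and 97.5% of its bin had fewer, but it kept 2 at a −log10 q of at least 5. CCND3 had 7 against a median of 11, and 20.8% of its bin had fewer, and it kept 1 at a −log10 q of at least 10. The excess of CDK6 over its bin median, 27 peaks, was 23 with 10 bins and 32 when all protein-coding genes with an intron formed the bins. That of RB1, 4 peaks, was 0 and 9 in the same alternatives, so RB1 did not stand apart from genes of its length. The bins were not recounted at the cuts on −log10 q, so the counts kept at a cut cannot be set against the medians. The bins match gene length only, and whether transcript abundance adds to the counts of intronic peaks was not tested.

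**Figure D4:**
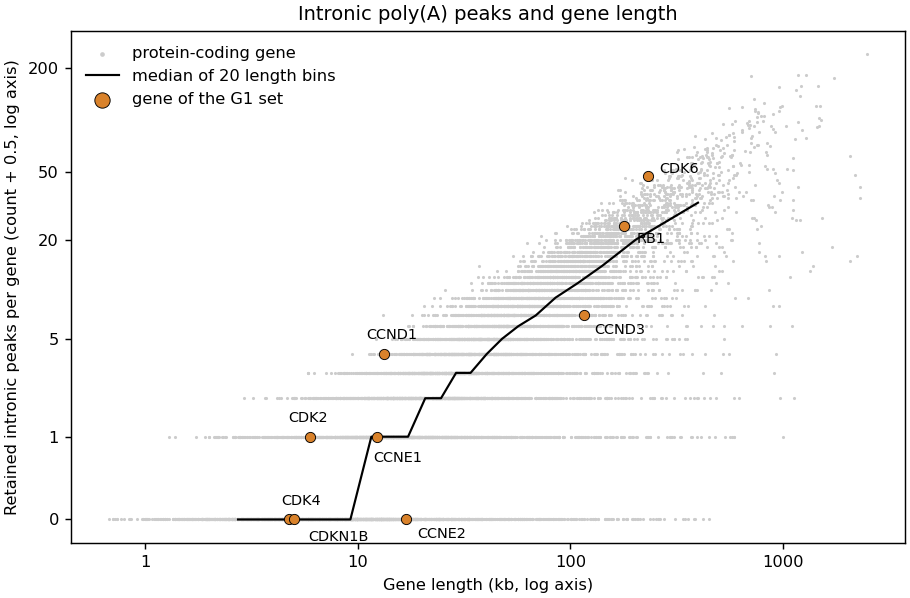
Number of retained intronic peaks per gene (count plus 0.5, log axis) against gene length (kb, log axis) for 12629 protein-coding genes with a terminal peak and an intron; the line joins the medians of 20 length bins and labelled points are 9 of the G1 genes. CDK6 with 47 peaks lies above the line and CCND3 with 7 below it.

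The peaks of CDK6 were spread over its first 5 introns, 3 in intron 1 (2.79 kb), 10 in intron 2 (58.3 kb), 8 in intron 3 (48.9 kb), 16 in intron 4 (54.1 kb) and 10 in intron 5 (48.3 kb). Introns 6 and 7 had 0. Over all introns this came to 21.4 peaks per 100 kb, and intron 4 had 29.6. Peaks in intron 4 lie after 54.7% of the coding sequence. The pileups ranged from 3 to 26, with a median of 9, so the intronic peaks of CDK6 were mostly below its terminal ones. By fold enrichment the strongest was at chr7:92711571-92711683 in intron 4 (12.7, pileup 20), followed by chr7:92646403-92646514 in intron 5 (11.8, pileup 17) and chr7:92821641-92821796 in intron 2 (11.2, pileup 20). All 3 were followed by A-rich sequence, and the first 2 had no hexamer.

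Of the 47 peaks of CDK6, 39 were followed by A-rich sequence on its strand, and 8 on the opposite one. A hexamer without A-rich sequence was left for 7 peaks. The highest by pileup was in intron 1 at chr7:92834239-92834369 (pileup 26, fold enrichment 9.89, AAGAAA at 60 bases), before any coding sequence. Intron 4 held 4 with fold enrichments from 7.23 to 8.99, 3 with AATAAA and 1 with ATTAAA. Intron 2 held the other 2, at chr7:92832460-92832627 (fold enrichment 6.62, ATTAAA at 91 bases) and chr7:92811081-92811187 (8.51, AATAAA at 27 bases). At a −log10 q of at least 10 CDK6 kept 11 intronic peaks.

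RB1 had its 24 intronic peaks in 9 of 26 introns, 11 of them in intron 17, the largest at 71.5 kb, and 4 in intron 2 (35.2 kb). Introns 18 to 22 and 24 to 26 had 0. Over all introns RB1 had 13.8 peaks per 100 kb. The strongest by fold enrichment were at chr13:48386048-48386156 (9.09, pileup 12) and chr13:48423038-48423149 (8.16, pileup 11), both in intron 17, the latter within LPAR6 on the opposite strand, and at chr13:48349439-48349603 in intron 6 (8.09, pileup 10). These 3 had pileups below 14, the lowest among the 22 terminal peaks. The highest intronic pileup of RB1 was 15, in intron 1 at chr13:48304273-48304380 (fold enrichment 7.77), and its terminal peak reached 18. A-rich sequence followed 23 of the 24. The exception, in intron 16 at chr13:48380183-48380283, had AATAAA at 24 bases, a pileup of 8 and a fold enrichment of 6.47, and the mirror-image window also held AATAAA. At a −log10 q of at least 10, 2 intronic peaks of RB1 remained.

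CCND1 differed from both in that none of its 4 intronic peaks was followed by A-rich sequence. The peak in intron 4, at chr11:69648582-69648702, had a pileup of 37 and a −log10 q of 16.9, with ATTAAA at 11 bases. It exceeded by pileup the terminal peaks at 2138 and 3188 bases of the same gene. A transcript ending there would hold the first 4 exons, with 81.4% of the coding sequence. The peak in intron 1, at chr11:69641540-69641676, had a pileup of 25, a fold enrichment of 5.60 and AATAAA at 22 bases, after 22.3% of the coding sequence. The other 2, in intron 3, had pileups of 14 and 13, no hexamer and −log10 q values of 3.57 and 2.27. The local background was high throughout CCND1, 318 to 504 reads per 10 kb at its peaks against 19 to 106 in RB1. A fold enrichment of a given pileup is lower where the background is high. Counted over 10 kb in a gene of 13.3 kb, the background can include reads of the gene's own peaks.

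CCND3 had 1 peak within an intron of its reference transcript, in intron 2 at chr6:41939839-41939959 (pileup 20, fold enrichment 10.3, ATTAAA at 46 bases, no A-rich sequence), after 47.1% of the coding sequence. The other 6 lay upstream of the reference transcript, in introns of other annotated transcripts, with pileups of 6 or 7. Among these, the peak at chr6:42048003-42048105 had AATAAA at 21 bases and ended 4 bp from an annotated transcript end. The peak at chr6:42000422-42000682 (fold enrichment 6.45) had no hexamer and was followed by A-rich sequence. The intronic peaks of CCNE1 (intron 11, pileup 13, fold enrichment 7.41, after 90.0% of the coding sequence) and CDK2 (intron 5, pileup 13, 6.48, after 65.5%) had no hexamer and were followed by A-rich sequence.

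**Figure D5:**
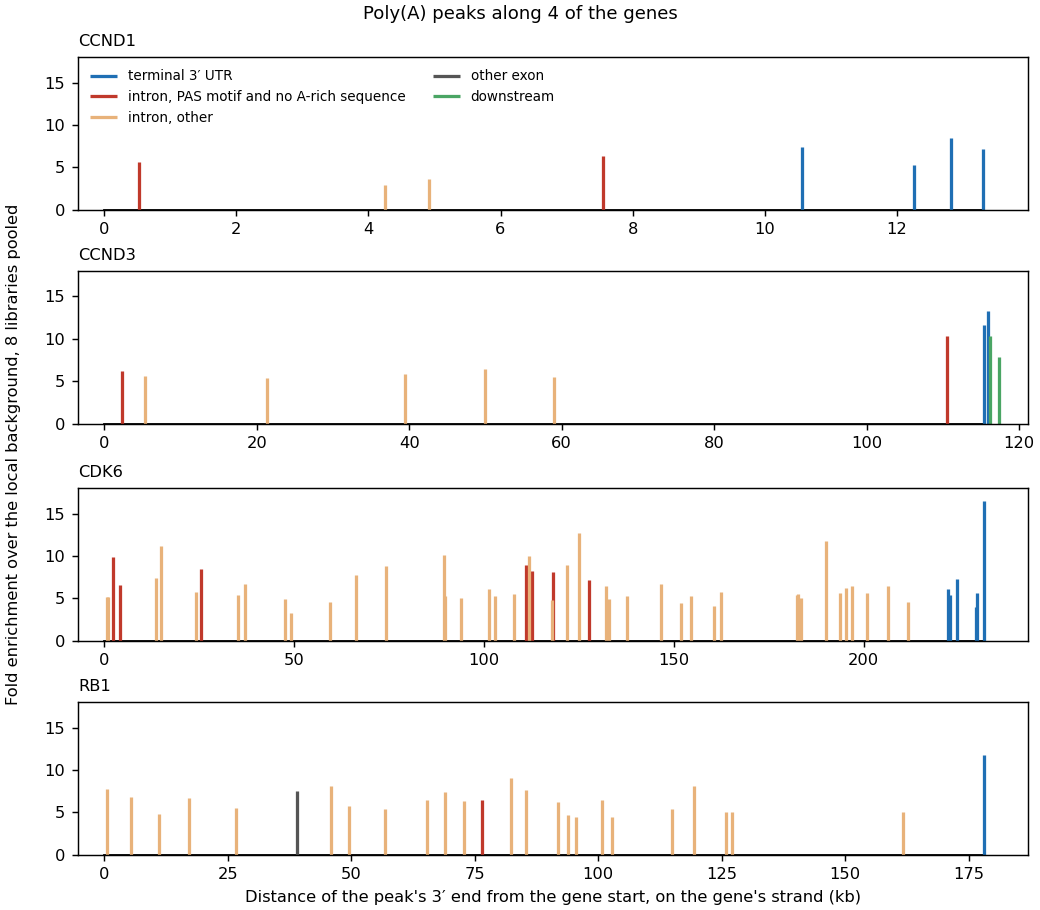
Retained peaks along CCND1, CCND3, CDK6 and RB1: the horizontal axis is the distance of the 3′ end of the peak from the gene start in kb, the height the fold enrichment over the local background (8 libraries pooled), and the colour the class of peak. The terminal peak of CDK6 at 16.5 is the highest line, and intronic peaks of RB1 stop short of its last introns except 1.

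Over all 84 intronic peaks, a hexamer was found for 58 (69.0%, interval 58.5 to 77.9%), against 54.8% of 84632 intronic peaks of protein-coding genes. In the mirror-image window it was 39 (46.4%), against 36.3% of all, so both strands of these peaks held more of the letters than the background. Peaks with an A stretch and no hexamer on the strand of the gene had been removed beforehand, here and in the background. That removal raises the share on the strand of the gene and used no hexamer of the opposite strand, so the strands were not treated alike. A-rich sequence followed 69 (82.1%, interval 72.6 to 88.9%), against 76.4% of all, and on the opposite strand 13 (15.5%), against 20.1%. A hexamer with no A-rich sequence was found for 12 (14.3%, interval 8.37 to 23.3%), against 17.4%, 7 of them in CDK6, 2 in CCND1, 2 in CCND3 and 1 in RB1. The median pileup was 8 for the 84 peaks and 8 for all intronic peaks. Whether peaks with A-rich sequence came from priming inside transcripts was not tested.

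The other exons held 3 peaks. The peak of CDK2 had a pileup of 13 near the gene start, that of RB1 a pileup of 8 with AAGAAA at 82 bases, and that of CCNE2 a pileup of 5 and a −log10 q of 1.34. These were low beside the terminal peaks of CDK2 and CCNE2.

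The stretch between proximal and distal sites is what the choice of site adds to or removes from a transcript. It held 2744 bases in CCND1 and 9346 in CDK6, 432 in CCND3, 782 in CDK4 and 918 in CDKN1B. The CDK4 peaks cannot be told apart from TSPAN31, and the proximal peak of CDKN1B had no hexamer over its whole width. The first peak of CDK6, at 866 bases, had no hexamer within 100 bp. At a −log10 q of at least 10 the first peak of CDK6 was at 3028 bases, so its stretch and the ATTTA counted in it depend on that cut. The reference sequence of the 3′ UTRs of genes with a terminal peak was searched for ATTTA, the core of AU-rich elements, which destabilise mRNAs. CCND1 had 7, all between its proximal and distal sites, CDK6 had 26, of which 24 lay between, and CDKN1B had 7, of which 5 lay between. Per kb this came to 2.19 in CCND1, 2.54 in CDK6 and 5.22 in CDKN1B, against 2.28 over 18982 reference 3′ UTRs. Of the genes with 1 site, CCNE2 (7.10 per kb) and RB1 (6.60 per kb) were the richest, and CCNE1 had 0. CDK4, with 3 sites, had 0 as well.

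MicroRNAs pair through their seed, bases 2 to 8, with sites in 3′ UTRs, and several have these transcripts as textbook targets. Of the 6 searched, 4 whose matches are shown here are given as mature sequences from RefSeq (GRCh38.p14), with the seed in capitals.
hsa-miR-16-5p: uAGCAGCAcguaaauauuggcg
hsa-miR-19a-3p: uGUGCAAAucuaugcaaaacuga
hsa-miR-34a-5p: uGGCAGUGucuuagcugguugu
hsa-miR-221-3p: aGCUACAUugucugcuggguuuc
The matches, in capitals, show on which side of the proximal site the letters lie.
CCND1, miR-16: tttcacattgttTGCTGCTattggaggatc (chr11:69653303-69653332, forward strand)
CCND1, miR-19a: caaaatagacaaTTTGCACatcttggctat (chr11:69653048-69653077, forward strand)
CDK6, miR-34a: ctttctgccacaCACTGCCttgttggcaaa (chr7:92614035-92614064, reverse strand)
CDKN1B, miR-221: taaaagcgttggATGTAGCattatgcaatt (chr12:12721216-12721245, forward strand)
CDKN1B, miR-221: tttttaccttttATGTAGCacataaacttt (chr12:12721289-12721318, forward strand)
CDKN1B, miR-34a: gaaacctatcctCACTGCCctccccagtct (chr12:12721650-12721679, forward strand)
CCNE1, miR-16: gcgtgctcccgaTGCTGCTatggaaggtgc (chr19:29824012-29824041, forward strand)

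In CCND1 the miR-16 match began 2033 bases after the stop codon and the miR-19a matches 1778 and 2752 bases after it. With the miR-17 match (GCACTTT) at 1014 bases, all 4 lay between the proximal site at 444 and the distal site at 3188, so none is in the shortest form. CDK6 was alike, with 2 matches of miR-16, 2 of miR-34a, 1 of miR-17 and 1 of miR-221 all beyond its first site at 866 bases. That first peak had no hexamer within 100 bp, was followed by A-rich sequence and had a −log10 q of 7.87. At a −log10 q of at least 10 the first site of CDK6 was at 3028 bases, beyond the miR-34a match at 1088 bases. CDKN1B was the opposite for miR-221, with both matches (201 and 274 bases) before the proximal site at 493 and hence in every form, while its miR-34a match at 635 bases lay between the sites. CCNE1, with 1 site, had miR-16 matches at 247 and 485 bases. CCND3 had 1 miR-16 match, at 614 bases and before its first site. RB1 had 1 miR-17 match and CCNE2 1 miR-34a match. The let-7a seed match (CTACCTC) was found in none of the 9 genes. Matches are common in 3′ UTRs: 21.5% of all reference 3′ UTRs hold the letters for miR-16, 21.4% for miR-17, 15.6% for miR-34a, 13.6% for miR-19a, 9.78% for let-7a and 8.19% for miR-221. Binding at these matches was not measured.

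Of 40 other genes of the pathway (further cyclins and CDK inhibitors, E2F factors and their partners, the RB relatives, members of the complexes that degrade p27 and cyclin E, and licensing factors), 38 had a terminal peak, against 66.8% of all protein-coding genes, and 22 of these had 2 or more sites, near the 53.8% of all genes with a terminal peak. CDKN2B, an inhibitor of CDK4 and CDK6, and CCNA1, a germ-line cyclin A, had 0 peaks. The most sites, 4 each, were found for CDC6, a replication licensing factor, TFDP2, a partner of E2F, and FBXW7, the subunit that marks cyclin E for degradation. The 8 genes with 3 sites tied for the next place: RBL1, E2F3, CDC25A, SKP1, CCNA2, CDK1, LIN54 and CDT1.

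Intronic peaks were found in 29 of the 38, near the 76.6% of all genes, with more than the median of the length bin in 16, fewer in 7 and as many in 15. The largest excess was that of MNAT1, a subunit of the CDK-activating kinase, with 34 against 20, and then that of LIN9, a subunit of the DREAM complex, with 17 against 9. CUL1, the scaffold of the SCF ligases, had 15 against 11, and TFDP2 had 24 against 20. The excess of CDK6, 27 peaks, was larger than that of each of the 38. The list was set down with earlier results of these data known, and its counts are a description.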

How the data were processed

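RNA from 8 libraries (Kelly and Kelly E9R cells, DMSO or, by the labels, 400 nM THZ531, for which the study's methods give a lower dose, 2 libraries per group) was sequenced by the authors with a 3′ kit that primes with oligo(dT). Per the labels and the study's methods, reads were mapped with STAR 2.5.1b to GRCh38 and the mapped reads of all samples were merged before MACS2 2.1.1 called peaks; the handling of duplicate reads, the q threshold and the genome size are not given in the sources used here. The deposited list gives per peak a score, a fold enrichment (a ratio), a −log10 p and a −log10 q, all from the authors, and 0 of its 153624 peaks have a strand. It has no values per library, so depth per library is unknown, and the planned edgeR comparison of THZ531 with DMSO was not run. The 4 groups follow the labels.

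The whole pileup and background were solved from the deposited fold and −log10 p by the formulas of MACS2. The background was a whole hundredth for 99.95% of peaks (tolerance 0.1 read). Peaks were annotated with GENCODE release 44: the span covers basic transcripts without readthrough, and the reference transcript is MANE Select. A peak was terminal when its 3′ end lay between the stop codon and 600 bp past the annotated end, and downstream up to 4 kb past it. Peaks with 25 A (at most 3 mismatches) in the 50 bp after the 3′ end and no hexamer in the 100 bp before it were removed. Python 3.11.15, pandas 2.3.3 and pysam 0.24.0 were used, and the code was tested on simulated data. The miRNA hsa-miR-124-3p was not analysed here, and values of some marker genes are not reported here. The 95% Wilson intervals cover counting error only, and reads carry no molecular identifiers.

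The members and lists were chosen with earlier results of these data known. All 10 members were named with every terminal site, up to 3 intronic peaks each by fold enrichment and every intronic peak with a hexamer and no A-rich sequence. Of other pathway genes, those without a terminal peak, the 4 with the most sites (with ties) and the 4 furthest above their length bin were named. Alternatives covered removal, a −log10 q of at least 5 or 10, 2 and 10 kb windows, transcript models, hexamers and their window, sites, overlapping genes and length bins.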

Additional observations from a re-analysis of the deposited data

How the results depend on the processing

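Of the counts over the 10 genes, the peaks in their windows fell to 36, the intronic peaks to 16 and the intronic peaks with a hexamer and no A-rich sequence to 7 at a −log10 q of at least 10. The share of terminal peaks with a hexamer was 40.9% with AATAAA and ATTAAA alone, 81.2% without peaks at exons or ends of other genes, and 90.9% with the hexamer anywhere in the peak, an alternative chosen after seeing the data. For single genes, intronic peaks fell to 2 for CCND1 at a −log10 q of at least 5 and to 1 for CCND3 at 10, terminal peaks fell to 2 for CCND1 and to 0 for CDK4 and CCNE2 without peaks at other genes, and CDKN1B gained 6 intronic peaks when the full GENCODE gene record, also chosen after seeing the data, was taken as its span. The longest transcript as reference left all 20 counts of terminal and intronic peaks per gene within 1.5 times their values. Windows of 2 and 10 kb could not change these counts, because neither class of peak depends on the window length. All peaks in the windows of the 10 genes numbered 112 and 119 with them. The other definition of a site only regroups peaks, and with it 5 genes had 2 or more terminal sites. A hexamer window of 50 bp left the 20 counts within the same limit, but hexamers enter them only through the removal of peaks. The share of terminal peaks with a hexamer was 54.5% with that window. No paired analysis was possible because the list pools all libraries and no test was run, and replicates could not be left out for the same reason. Depth per library is unknown, so sites below detection in the pool are missed, and without strand the genes that overlap at CDK4, CCNE2 and CCND1 cannot be told apart.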
